A study of Mus musculus with 12 samples.

Results

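The genes described here encode 10 subunits of ionotropic glutamate receptors: 6 subunits of NMDA receptors (Grin1, Grin2a, Grin2b, Grin2c, Grin2d and Grin3a) and 4 of AMPA receptors (Gria1, Gria2, Gria3 and Gria4). They were chosen by gene symbol, without use of their values. All 10 were found among the 18208 genes of the RNA-seq table and among the 16918 genes with a window in the CLIP-seq table. The CLIP-seq table counts reads in windows of 100 nt, and 928 of its 147438 distinct windows belonged to these genes. In GENCODE M21 (GRCm38), Grin1 lies at chr2:25291181-25319187, Grin2a at chr16:9567898-9995560, Grin2b at chr6:135713233-136173511, Grin2c at chr11:115249169-115267243, Grin2d at chr7:45831883-45878378 and Grin3a at chr4:49661611-49845744, all on the minus strand. Gria1 lies at chr11:57011387-57330244 and Gria3 at chrX:41400854-41678601 on the plus strand, and Gria2 at chr3:80681450-80802835 and Gria4 at chr9:4417896-4796234 on the minus strand.

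Fast excitatory transmission at glutamate synapses runs through AMPA receptors, tetramers of GluA1 to GluA4. NMDA receptors open more slowly, need a co-agonist and depolarisation, and combine the obligatory GluN1 with GluN2 or GluN3 subunits. In the striatum both families receive the cortical and thalamic input to medium spiny neurons. Many of these genes are spliced alternatively: Grin1 has an N1 cassette exon in its extracellular part and a C1 cassette exon in its cytoplasmic tail, and each Gria gene has a mutually exclusive pair, flip and flop. hnRNP H is an RNA-binding protein that recognises runs of G and takes part in splicing.

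In CLIP-seq, RNA cross-linked to hnRNP H was pulled down with an antibody to the protein and sequenced. RNA-seq was made from a portion of the same tissue pool. The mice were wild-type C57BL/6J, 50 to 100 days old, from matings of males heterozygous for an Hnrnph1 mutation with C57BL/6J females. Saline was injected on each of the first 2 days. On day 3 the control pools received it again and the treated pools received methamphetamine, a psychostimulant, at 2 mg/kg i.p., with whole striata taken 30 min later. Each treatment had 3 replicates, each a pool of 4 mice (2 females and 2 males), so there were 6 libraries per assay. Pooling hides the spread between animals, and p-values measure the spread between pools.

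RNA-seq libraries held 3935160 to 5091839 reads, and CLIP-seq libraries held 423057 to 1635338 reads in windows. The libraries fall into 2 sets that cut across treatment. The sets are known from earlier results of these data, by the first principal component (the main axis of variation between libraries). Set A is saline replicates 1 and 3 with methamphetamine replicate 2, and set B is saline replicate 2 with methamphetamine replicates 1 and 3. Summed RNA-seq levels of 12 striatal projection neuron markers were 8661 to 9887 CPM (reads scaled to the size of the library) in set A, against 6387 to 7164 in set B. The sum of 12 cortical excitatory neuron markers was 220 to 493 CPM in set A, against 530 to 953 in set B. Astrocyte markers (8 genes) were at 2454 to 2729 and 3644 to 4033 CPM, and interneuron markers (8 genes) at 882 to 1019 and 1117 to 1661 CPM. Microglia markers (6 genes) were at 209 to 230 and 247 to 286 CPM. Of the interneuron markers, 4 were higher in every set B library. Gad1, the highest of the list (mean 9.14 log2 CPM), was among them, while Sst, the next (8.36), overlapped. Whether Gad1 marks interneurons alone in this tissue was not tested, so that sum does not show a difference in interneuron content. Oligodendrocyte markers (8 genes) overlapped between the sets, at 5043 to 12307 and 6710 to 12053 CPM. Choroid plexus markers (6 genes, of which Kcnj13 was at 0 reads in at least 1 library) reached 4924 CPM in methamphetamine replicate 2, against 62.7 to 225 CPM elsewhere. All markers of the other lists were detected in every library. Genes whose RNA-seq values did not overlap between the sets made up 38.8% of the table. Since the sets were drawn from these data, that share does not test them.

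Grin1, which encodes the GluN1 subunit that every NMDA receptor contains, had the highest RNA-seq level of the 10 genes per exon length. Its log2 CPM was 9.51, 9.52 and 9.62 in saline replicates 1 to 3 and 9.38, 9.64 and 9.56 after methamphetamine. The 6 values lay close together and the treatments overlapped, with a limma change of -0.020 ± 0.18 (SE) on the log2 scale, methamphetamine minus saline, and an adjusted p of 0.9998.

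The GluN2 subunits bind glutamate and set the kinetics of the channel. Grin2b, the subunit gene best known from early development and retained in the forebrain, had 8.76, 9.01 and 8.62 log2 CPM after saline and 8.68, 8.76 and 9.14 after methamphetamine. Grin2a, the partner subunit that gains weight with maturation, had 7.30, 7.75 and 7.30 after saline and 7.53, 7.32 and 7.69 after methamphetamine. In each treatment the highest Grin2a value belonged to a set B library. The difference Grin2a minus Grin2b within a library, a measure free of library scaling, was -1.34 ± 0.10 log2 units in the saline libraries and -1.35 ± 0.16 in the methamphetamine libraries (mean ± SD, n = 3 per treatment). The exact permutation test gave p = 1 (two-sided, smallest possible p 0.1, and 1 after adjustment over the 3 exact tests planned).

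Grin2c, whose product is best known from the cerebellum, had 6.53, 6.11 and 6.72 log2 CPM after saline and 6.45, 6.64 and 6.21 after methamphetamine. On the deposited scale it was the only member lower in every set B library than in every set A library. Grin2d stayed between 4.93 and 5.30 log2 CPM. Grin3a, which encodes a glycine-binding subunit that lowers calcium entry, was the lowest per exon length, with 3.96, 4.67 and 3.46 after saline and 4.53, 3.44 and 4.97 after methamphetamine (44 to 162 reads per library). Its limma change of 0.28 ± 0.42 (SE) rested on methamphetamine replicate 3, without which it was -0.048, and on saline replicate 3, without which it was -0.004.

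Among the AMPA receptor subunits, Gria1 had 8.36, 8.66 and 7.93 log2 CPM after saline and 8.14, 7.94 and 8.64 after methamphetamine. Gria2, whose edited product makes AMPA receptors nearly impermeable to calcium, had 7.29, 8.0 and 6.80 after saline and 7.41, 6.83 and 7.75 after methamphetamine. Both genes were lowest in saline replicate 3 and methamphetamine replicate 2. The difference Gria1 minus Gria2 within a library was 0.95 ± 0.26 log2 units in the saline libraries and 0.91 ± 0.20 in the methamphetamine libraries (mean ± SD, n = 3 per treatment; exact permutation p = 0.9, two-sided, 1 after adjustment).

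Gria3 and Gria4 had lower levels per exon length and spread more between libraries. Gria3 ran from 4.52 log2 CPM in saline replicate 3 to 6.33 in saline replicate 2, so the lowest and the highest value came from the same treatment. Gria4 had 4.29, 5.41 and 4.47 after saline and 5.22, 4.46 and 5.32 after methamphetamine. The 3 set B libraries were again the high ones. Gria2, Gria3, Gria4, Grin2a and Grin3a lay higher in every set B library than in every set A library, by 0.75, 1.14, 0.91, 0.35 and 1.10 log2 units on average. On the deposited scale, these 5 of 10 genes stand beside 19.9% of all genes that were higher in every set B library, and 1 of 10 (Grin2c) beside 18.9% that were lower. The part of tissue composition in this split was not tested for these genes. In bulk tissue, fewer cells of a type and less RNA per cell cannot be told apart.

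**Figure D1:**
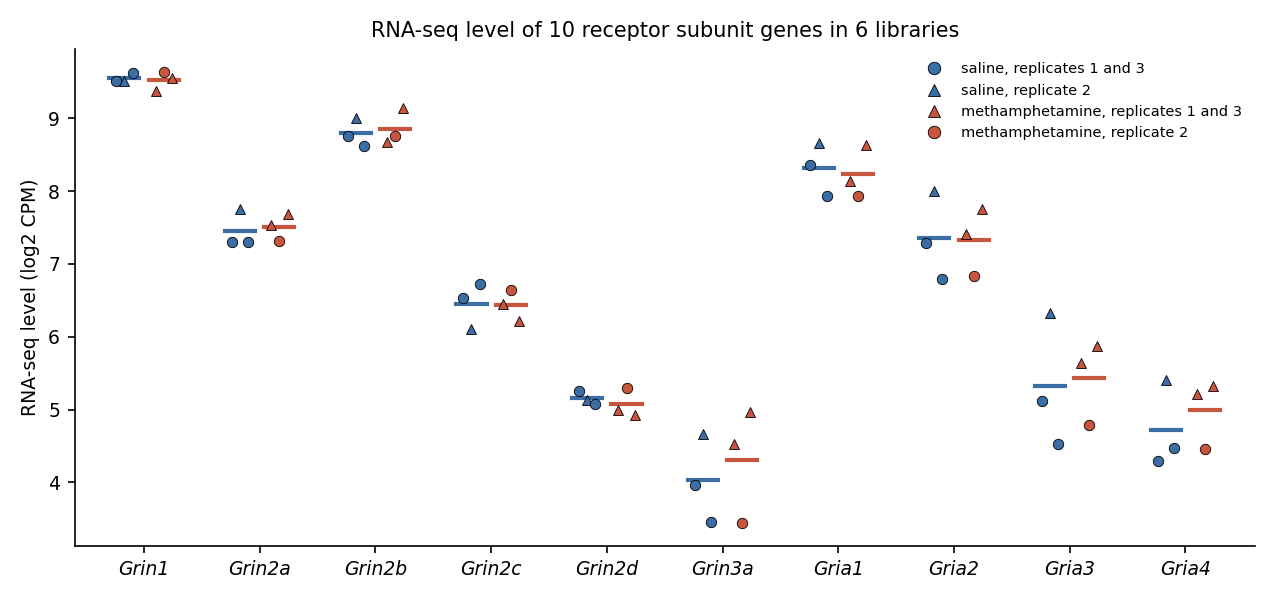
RNA-seq level of the 10 subunit genes (deposited log2 CPM, y axis) in each library, with saline in blue, methamphetamine in red and the mean of 3 libraries as a bar; circles are set A and triangles set B. For Gria2, Gria3, Gria4, Grin2a and Grin3a every triangle lies above every circle, while the treatments overlap for all 10 genes.

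Scaled for exon length (RPKM, recovered reads per kilobase of merged exons, scaled to the reads of the library), the order of levels over the 6 libraries was Grin1 (72.9 ± 4.42), Gria1 (50.4 ± 14.3), Grin2b (17.6 ± 3.60), Grin2c (16.5 ± 1.75), Gria2 (10.6 ± 4.19), Grin2a (9.64 ± 2.05), Grin2d (4.93 ± 0.376), Gria4 (4.69 ± 1.91), Gria3 (4.51 ± 2.39) and Grin3a (1.55 ± 0.758; SD, n = 6). Grin1 ranged from 67.9 to 79.4 RPKM and Gria1 from 34.7 to 67.4, so the first pair did not overlap, by a narrow margin. Grin2b and Grin2c overlapped, as did Gria2 and Grin2a. Grin2d, Gria4 and Gria3 could not be placed in order, with ranges of 4.36 to 5.29, 2.78 to 6.79 and 1.99 to 8.20 RPKM.

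Over the whole RNA-seq comparison none of the 10 genes passed an adjusted p of 0.05 in limma, against 0% of all 18208 genes. Before adjustment, p was under 0.05 for 0 of the 10, against 1.52% of the table. Fitted changes ran from -0.080 (Grin2d) to 0.28 (Grin3a and Gria4), 5 positive and 5 negative, with a median of 0.022 beside 0.002 for all genes. No member had treatments that did not overlap, against 6.01% of all genes. edgeR and DESeq2 on reads recovered from the log2 values (100% of the values came out whole within 0.02 reads) called 0 of 13299 genes each, with 109 and 81 genes at an unadjusted p under 0.05. With the library set as a covariate, the sign of the fitted change turned for 7 members: Grin1 (0.015), Grin2a (-0.058), Grin2b (-0.012), Grin2c (0.12), Grin3a (-0.10), Gria3 (-0.30) and Gria4 (-0.029). A missed threshold does not show that levels were equal in the treatments.

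Genes that work with these receptors gave the same counts. Of 8 other ionotropic glutamate receptor genes (kainate and delta subunits and Grin3b), 0 passed the adjusted threshold in limma and 0 had an unadjusted p under 0.05, with a median change of -0.048. The figures were 0 and 0 of 15 AMPA receptor auxiliary and assembly genes, such as the TARP and cornichon families (median -0.048), and 0 and 0 of 19 scaffolding, trafficking, kinase and co-agonist genes (median 0.051).

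hnRNP H CLIP reads lay on all 10 genes, most of them on Gria1, Grin2b and Grin2a. Gria1 had 3276 reads in 276 windows, Grin2b 3336 in 208, Grin2a 2188 in 139, Gria2 1745 in 142, Grin1 1485 in 87, Gria3 876 in 28, Grin2c 386 in 29, Gria4 311 in 9, Grin3a 304 in 5 and Grin2d 36 in 5. By CLIP CPM (the gene's reads scaled to the window reads of the library, not to length), Grin2b and Gria1 each stood at percentile 98.7 of the 16918 genes, Grin2a at 97.3, Gria2 at 96.5 and Grin1 at 95.9. Grin2d stood at percentile 38.2. Per length the picture differed: Grin1, a gene of 28 kb, had 311 windows per 100 kb (percentile 98.2 of genes), Grin2c 160, Gria2 117, Gria1 86.6 and Grin2b 45.2, while Grin3a and Gria4 had 2.72 and 2.38. Across the 10 genes the number of windows followed the RNA-seq level (Spearman's rho 0.83) more than gene length (rho 0.36), a description over genes that share libraries and depth.

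**Figure D2:**
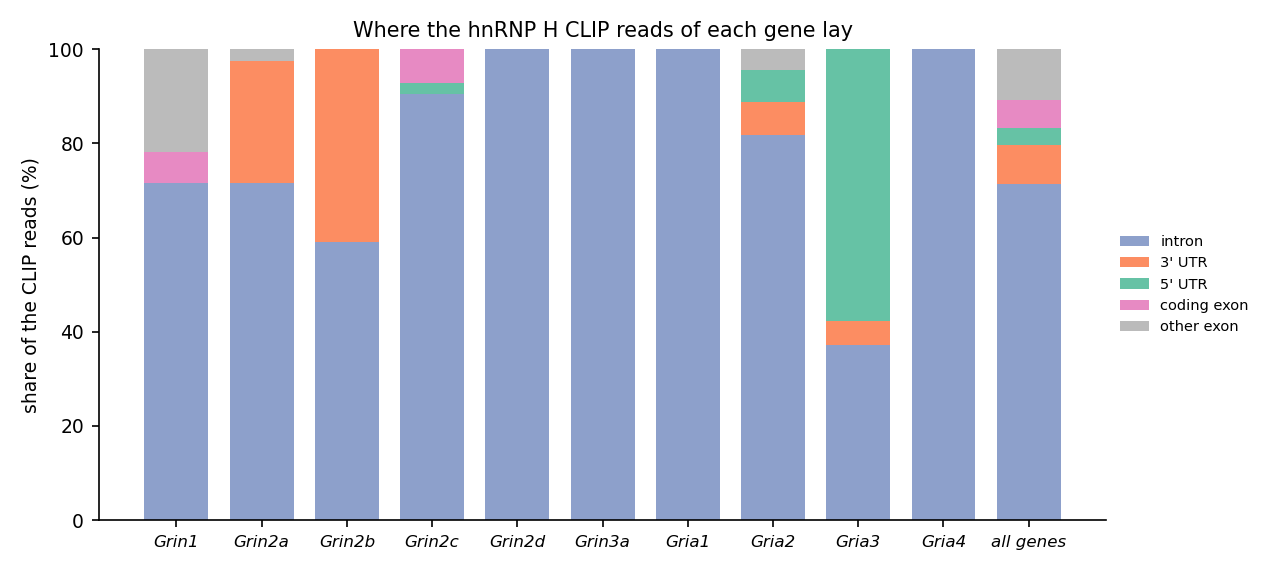
Share of the CLIP reads of each gene (y axis, percent, 6 libraries summed) by region of the window midpoint in GENCODE M21, with all genes of the table in the last bar. Intron reads dominate in 9 genes, Grin2a and Grin2b carry the largest 3′ UTR shares of the 10, and Gria3 is the gene with most of its reads in the 5′ UTR.

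The subunit genes differed in where the reads lay. Introns held 76.3% of the members' reads against 71.3% of all reads, 3′ UTRs 15% against 8.27%, and coding exons 0.918% against 5.88%. All reads of Gria1, Gria4, Grin2d and Grin3a lay in introns. Grin2b had 40.9% of its reads in the 3′ UTR and Grin2a 25.8%, so the NMDA receptor genes together reached 24.9%, against 2.64% for the AMPA receptor genes. Gria3 had 57.8% of its reads in the 5′ UTR. In Grin1, 71.5% lay in introns, 6.73% in coding exons and 21.8% in exons of transcripts without a coding sequence.

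In most members the intron windows lay deep within introns. The median distance to the nearest exon was 9342 nt over the 811 intron windows of the members, against 1721 nt over all intron windows, and 12.3% against 27.3% lay within 500 nt of an exon. Grin2c, Grin1 and Grin2d had the shortest medians, at 269, 407 and 569 nt, the last over 5 windows, and the next was Gria2 at 3756 nt. In Grin1, 52.3% of the intron windows and 62.9% of the intron reads lay within 500 nt of an exon, where 46.2% of its intron bases lie. In Gria1 the figures were 8.33% of windows, 16.1% of reads and 6.05% of bases. Grin2b went the other way, with 1.16% of windows and 0.507% of reads near exons and 3.08% of bases.

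A few windows carried much of the signal of some genes. Grin3a had 91.1% of its reads in 1 intron window, chr4:49738712-49738811, with 54, 21 and 87 reads after saline, against 19, 73 and 23 after methamphetamine. Gria3 had 29.7% in a 5′ UTR window, chrX:41401355-41401454, with 42, 5 and 99 reads and then 39, 44 and 31. Gria2 had 22.5% in an intron window, chr3:80730751-80730850, with 149, 6 and 83 reads and then 26, 77 and 52. The highest window of Gria4 was chr9:4421797-4421896, in an intron, with 24, 12 and 15 reads after saline, against 0, 19 and 4 after methamphetamine. The highest Gria1 window, chr11:57224688-57224787, also in an intron, took most of its reads from 2 libraries: it had 8, 106 and 4 reads after saline, against 107, 2 and 18 after methamphetamine, which in CPM is a 123-fold span. The saline and methamphetamine values of each of these windows overlapped.

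For Grin2a and Grin2b the highest windows were in 3′ UTRs: a window of Grin2a (chr16:9571699-9571798; 100, 5 and 112 reads after saline, 18, 71 and 17 after methamphetamine) and one of Grin2b (chr6:135713434-135713533; 24, 23 and 58, then 80, 43 and 12). In Grin2a the 3 set A libraries were the high ones. Grin1 had its highest window in the last intron, chr2:25292582-25292681, with 19, 10 and 27 reads and then 8, 12 and 14. For Grin2c it was chr11:115265070-115265169, an intron window of 2 to 14 reads, and for Grin2d chr7:45859084-45859183, an intron window of 0 to 6 reads, too few for a comparison.

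Several of the UTR windows with many reads hold runs of G, the sequence that hnRNP H is known to recognise, and others do not. Stretches of 30 bases are given around the longest run of G in the highest 3′ UTR windows of Grin2a and Grin2b and in another 3′ UTR window of Grin2b with 119 reads. They are also given for the highest 5′ UTR window of Gria3 and for a 5′ UTR window of Gria2 (GENCODE M21 transcripts, GRCm38). For contrast, the last stretch is from the Grin2b window with the highest signal value. They are written 5′ to 3′ on the strand of the gene, and capitals mark every run of 3 or more G and every TAGG. TAGG is marked as a separate motif, and whether hnRNP H binds it was not tested.
Grin2a 3′ UTR, chr16:9571741-9571770, minus strand: aaggaggaggtGGGGGGGGaggaggaggag
Grin2b 3′ UTR, chr6:135713458-135713487, minus strand: TAGGGtGGGGGtGGGGGGGtctctcGGGtg
Grin2b 3′ UTR, chr6:135714980-135715009, minus strand: tgaggctgaatgaGGGGGaGGGGGaGGGGG
Gria3 5′ UTR, chrX:41401425-41401454, plus strand: gagcgagagcaagttgaGGGGaGGGGGtgt
Gria2 5′ UTR, chr3:80802703-80802732, minus strand: tgagagaggagagaGGGagaagagagctcg
Grin2b 3′ UTR, chr6:135721304-135721333, minus strand: caaacacaatTAGGataaaaagctaagaac

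That 3′ UTR window of Grin2b, the highest of the gene by signal value (the authors' own score per peak, of unstated scale) in the authors' deposited saline list (2.17, q = 3.56e-12), lies at chr6:135721234-135721333 and had 133 reads, with 1 TAGG and no run of 3 G in its 100 bases. Runs of 3 G were also absent from another 5′ UTR window of Gria3, chrX:41401455-41401554, with 106 reads. The same held for 3′ UTR windows of Grin2b with 72, 43 and 38 reads. Of the 110 member windows that lie within 1 exon, 50.0% held GGG on the transcript strand, against 70.9% of 24074 such windows of all genes, and 28.2% held GGGG against 36.5%. TAGG occurred in 27.3% against 24.3% (searched on the transcript strand, where TAGGG counts for both TAGG and GGG). Among listed windows GGG was found in 61.5% of 13 member windows and 82.4% of 3403 windows, and TAGG in 53.8% and 24.8%. Intron windows, the largest group, were not read for sequence here.

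Among the longer intron flanks of Grin1, those densest in CLIP reads lay beside alternative exons. The N1 cassette exon (63 nt) and the C1 cassette exon (111 nt) are given from GENCODE M21 transcripts (GRCm38), 5′ to 3′, with the same capitals. The window just upstream of N1 follows, because it carried the highest signal value of the gene in the methamphetamine list; it is intron in the coding transcripts and exon in a processed transcript (Grin1-214).
N1 exon, chr2:25311343-25311405, minus strand: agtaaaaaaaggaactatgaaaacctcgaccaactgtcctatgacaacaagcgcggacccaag
C1 exon, chr2:25294438-25294548, minus strand: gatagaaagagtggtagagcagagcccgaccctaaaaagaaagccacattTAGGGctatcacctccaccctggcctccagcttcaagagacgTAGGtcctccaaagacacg
Window upstream of N1, chr2:25311482-25311581, minus strand: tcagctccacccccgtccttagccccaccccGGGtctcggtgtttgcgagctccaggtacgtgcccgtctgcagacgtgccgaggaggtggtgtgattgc

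The C1 exon holds TAGG at 2 places, the first extended to TAGGG, and N1 holds neither TAGG nor a run of 3 G. The reads lay beside the exons more than on them. Within 500 nt of N1 there were 8 windows with 158 reads, 144 of them upstream in the transcript and 14 downstream. Within 500 nt of C1 there were 7 windows with 213 reads, 169 of them downstream and 16 upstream; the window chr2:25294082-25294181, downstream of C1, stood in both peak lists. Downstream of C1 the reads ran on through the last intron, which leads to the last exon and its alternative acceptor sites (the C2 choice, at 25292484 and 25292128). This intron of 1953 nt is 6.97% of the gene and held 37.7% of its CLIP reads (560 reads in 17 windows, 5 of them in the authors' lists).

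Intron flanks of 233 to 500 nt beside exons of Grin1 were ranked by CLIP reads per 100 nt, after the clusters had been seen. Shorter flanks, where the next exon lay close, were left out, so they were not compared. The introns of 233 and 413 nt were each ranked from both sides. Of 22 flanks, the one upstream of the last exon ranked first (42.8 reads per 100 nt), the one upstream of N1 was the second (26.6) and the one downstream of C1 the third (26). The fourth had 17, and the flanks on the far side of the cassette exons had 2.40 (downstream of N1) and 3.20 (upstream of C1). The antisense gene Grin1os (chr2:25291220-25298925) covers the last intron and C1 but not N1. In 38 pairs of windows on opposite strands whose starts lay within 20 nt, 0 had equal read totals, and no window of the count table was named for Grin1os. Grin1os had 6.90 to 7.37 log2 CPM in RNA-seq, where the use of strand is not stated.

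**Figure D3:**
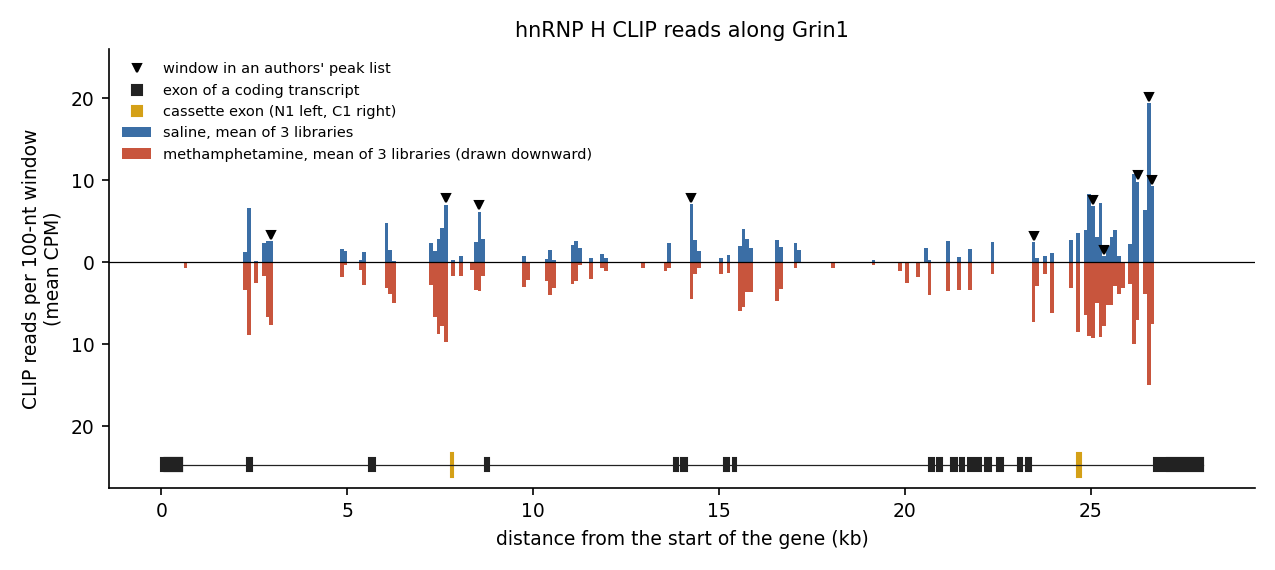
Mean CLIP CPM per 100-nt window along Grin1 (x axis, kb from the start of the gene), with saline drawn upward and methamphetamine downward; triangles mark windows in an authors' peak list and the boxes at the foot mark exons, with the cassette exons in yellow. The tallest window in both treatments lies just before the last exon, and the clusters before N1 and after C1 stand above most of the gene.

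By treatment, CLIP reads within 500 nt of N1 came to 19.9, 18.9 and 17.7 CPM after saline, against 39.6, 42.9 and 37.0 CPM after methamphetamine. All 3 methamphetamine values lay above all 3 saline values, with means of 18.9 ± 1.10 and 39.8 ± 2.96 CPM (SD, n = 3 each), a ratio of 2.11. The exact permutation test gave p = 0.1 (two-sided), the smallest p that 3 against 3 can give, and 0.3 after adjustment over the 6 tests of this kind, all chosen after the values had been seen. The difference of 20.9 CPM was 24.0 CPM within set A and 19.4 within set B, and 19.4 to 22.4 CPM with any library left out. The counts behind it were 8 to 42 reads per library. None of the 8 windows in the sum separated the treatments by itself (0 of 8), and the methamphetamine replicates spread their reads over these windows in different proportions. The same sum around each of the 21 exons of Grin1 separated the treatments at 4 of them (19%), N1 included, each time with methamphetamine higher; neighbouring exons share windows. As a share of all Grin1 CLIP reads, the N1 region took 11.7%, 7.21% and 7.61% after saline and 9.68%, 15.6% and 12.8% after methamphetamine, which overlap (exact permutation p = 0.2, n = 3 each).

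The other stretches did not separate in CPM. Near C1 the CPM were 21.8, 56.7 and 28.7 after saline and 66, 22.5 and 62.1 after methamphetamine, with the 3 set B libraries high (exact permutation p = 0.4). In the last intron they were 63.6, 139 and 91.1 and then 148, 97.0 and 92.4 (exact permutation p = 0.5). As a share of Grin1 reads the last intron took 37.4%, 53.2% and 39.1% after saline and 36.3%, 35.2% and 32.0% after methamphetamine, which do not overlap (exact permutation p = 0.1, adjusted 0.3). That difference was -3.08 percentage points within set A and -19.0 within set B.

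Flip and flop exons of the Gria genes had few reads near them. Gria1 had 2 windows within 500 nt of each of its 2 mutually exclusive exons, all upstream: chr11:57309188-57309287 and chr11:57309588-57309687 with 16 reads together, and chr11:57310388-57310487 and chr11:57310488-57310587 with 21. Gria2 also had 2 windows near each exon: chr3:80691651-80691750 and chr3:80691751-80691850 with 4 reads together, and chr3:80689951-80690050 and chr3:80690251-80690350 with 5. These are too few reads for a comparison of treatments. Gria3 and Gria4 had 0 windows within 500 nt of either exon.

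For whole genes, CLIP reads of Grin1 were 170, 262 and 233 CPM after saline and 409, 276 and 289 CPM after methamphetamine. In these CPM, scaled to window reads alone, every methamphetamine library lay above every saline library. With the TMM scaling of the edgeR fit (a correction for library composition), saline replicate 2 lay above methamphetamine replicate 2, so the treatments overlapped. The edgeR change was 0.54 ± 0.36 (SE, log2), with an adjusted p of 0.8829. The change was 0.47 within set A and 0.39 within set B. By the CPM without TMM, Grin1 was the only member of the 9 that passed the count filter whose treatments did not overlap. Among all 8185 genes tested the share was 9.26%. Grin2d, with 0 to 10 reads per library, did not pass the filter.

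Gria2, by fitted change the highest of the 9, had CPM of 353, 123 and 206 after saline and 565, 281 and 328 after methamphetamine, a change of 0.79 ± 0.46 (SE; edgeR, adjusted p 0.8829). The change was 0.057 within set A and 1.81 within set B, 0.40 without methamphetamine replicate 1, 0.47 without saline replicate 2 (below Gria1, Grin1 and Grin2b) and 1.24 without saline replicate 1. Gria4 went the other way, with 69.3, 144 and 45.3 CPM after saline and 36.3, 62.3 and 15.1 after methamphetamine, a change of -1.21 ± 0.62 (SE; edgeR, adjusted p 0.8829). It was 0.15 within set A and -2.62 within set B, so set A did not share the direction, and -0.59 without saline replicate 2.

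Methamphetamine replicate 1 was the highest library for Grin1, Grin2a, Grin2b, Gria1, Gria2, Gria3 and, on 10 reads, Grin2d. Gria1 had 465, 690 and 390 CPM after saline and 1335, 389 and 440 after methamphetamine, and Grin2b 515, 534 and 422 and then 1247, 491 and 442. Their changes of 0.47 ± 0.54 and 0.56 ± 0.46 (SE) became -0.36 and -0.11 without that library, and that of Grin2a (0.22 ± 0.42) became -0.11. In 78 of 374 member windows with at least 10 reads (20.9%), that library alone held over 50% of the reads, against 15% of all such windows.

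**Figure D4:**
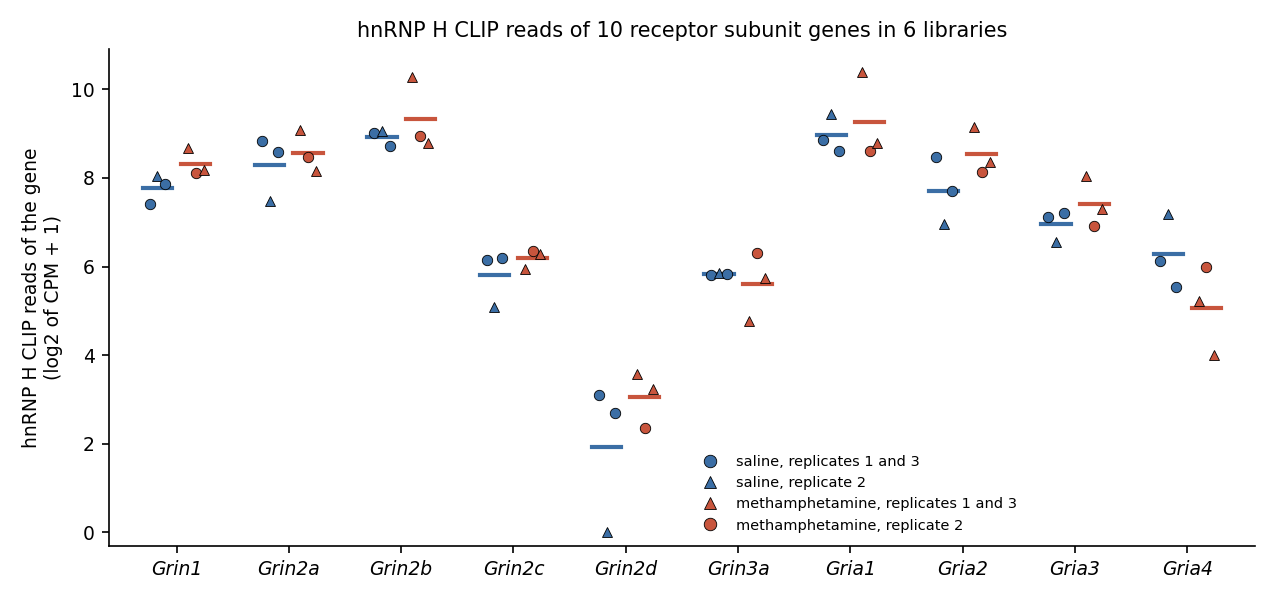
hnRNP H CLIP reads of each gene, as log2 of CPM + 1 (y axis), in each library; colours and symbols are as in the plot of RNA-seq levels, and bars are means of the plotted values. The red triangle of methamphetamine replicate 1 stands highest for Grin1, Grin2a, Grin2b, Grin2d, Gria1, Gria2 and Gria3. Grin1 is the tested gene with no overlap in these CPM, which are without TMM scaling.

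In the CLIP comparison per gene 0 of the 9 members tested passed an adjusted p of 0.05 in edgeR, against 0% of 8185 genes, and 0 had an unadjusted p under 0.05, against 5.24%. DESeq2 also called 0 members and 0 genes, with 397 genes at an unadjusted p under 0.05. Of the 9, 7 changes were positive and 2 negative (Grin3a and Gria4), with a median of 0.47 beside 0.038 for all genes. This median rested on methamphetamine replicate 1. Without that library the middle value of the 9 was 0.12 (Gria3), beside a median of -0.013 for all genes. Grin2a, Grin2b and Gria1 then turned negative and Grin3a positive. Of the 3 receptor partner lists, 0 genes passed the adjusted threshold and 0 had an unadjusted p under 0.05 (7, 14 and 16 genes tested; medians 0.23, 0.43 and 0.27).

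CLIP reads were also set against the RNA-seq level of the same pool, as log2 CLIP CPM minus log2 RNA-seq CPM. Grin1 had -2.02, -1.31 and -1.77 after saline and -0.61, -1.54 and -1.30 after methamphetamine, which overlap. Gria4 had 1.93, 1.95 and 1.07 after saline and 0.13, 1.53 and -1.14 after methamphetamine, with a limma change of -1.47 ± 0.68 (SE) and an adjusted p of 0.9975. Without methamphetamine replicate 3 it was -0.82. Gria2 had a change of 0.86 ± 0.64 (SE), which was 0.21 without saline replicate 2. Of 9 members, 0 passed the adjusted threshold in limma, against 0% of 7025 genes, and 0 had an unadjusted p under 0.05, against 2.99%. None had treatments that did not overlap, against 7.52% of the genes. The median change was 0.34 beside 0.055 for all genes. Without methamphetamine replicate 1 the middle value of the 9 was -0.025 (Grin3a), beside a median of -0.0058 for all genes.

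**Figure D5:**
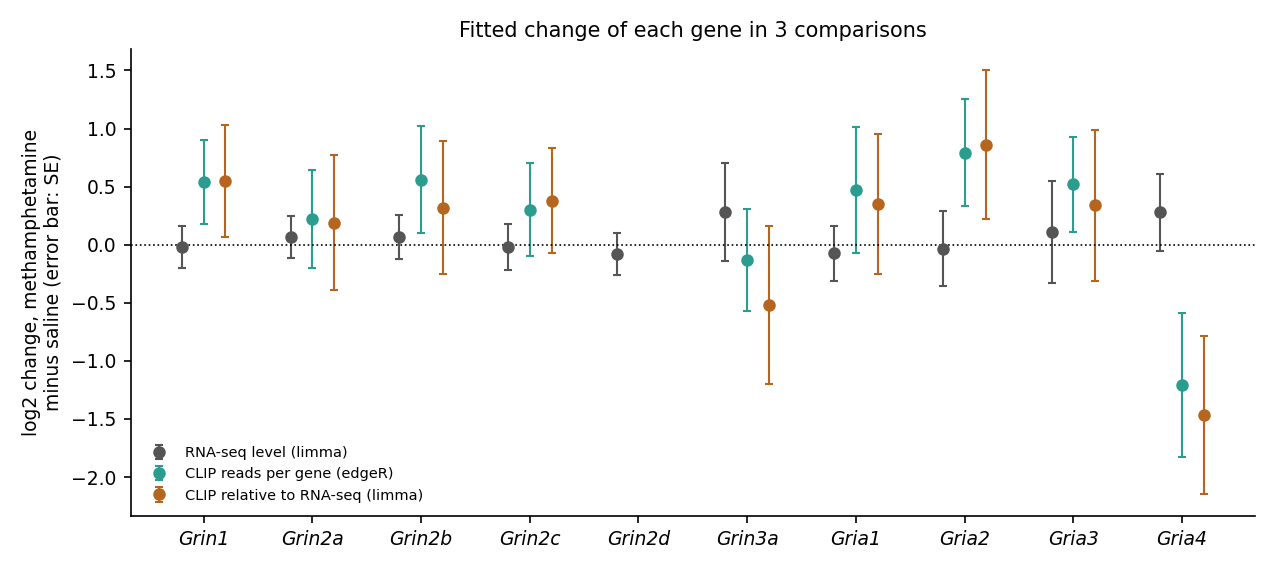
Fitted log2 change of each gene, methamphetamine minus saline (y axis, points with SE bars), for RNA-seq level, CLIP reads per gene and CLIP reads relative to RNA-seq level; Grin2d has a value for RNA-seq only. RNA-seq changes stay between -0.080 and 0.28, and Gria4 is the lowest gene in the other comparisons at -1.21 and -1.47.

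Of the members' windows, 30 had enough reads to be tested singly. None passed an adjusted p of 0.05 in edgeR, against 0% of 10358 windows, and 1 had an unadjusted p under 0.05, against 3.35% of windows. That window was the 5′ UTR window of Gria2, chr3:80802651-80802750, from which a run of G is given among the sequences. It had 8, 2 and 27 reads after saline, against 49, 15 and 20 after methamphetamine, or 7.60, 4.73 and 16.5 CPM against 53.9, 15.3 and 33.6 CPM. The values overlapped, since saline replicate 3 lay above methamphetamine replicate 2, and the change of 2.11 ± 0.72 (SE) had an unadjusted p of 0.0206 and an adjusted p of 0.9998. The change was 1.32 without methamphetamine replicate 1, which held 49 of the reads, and 1.45 with the library set as a covariate, where no member window had an unadjusted p under 0.05.

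The next in the ranking were an intron window of Grin2a, chr16:9970699-9970798 (52, 5 and 27 reads, then 2, 18 and 5; change -1.30 ± 0.73), and a 5′ UTR window of Gria3, chrX:41401455-41401554 (16, 5 and 30, then 20, 17 and 18; change 0.84 ± 0.47). Of the 30 windows, 15 changes were positive and 15 negative, with a median of 0.026 beside 0.047 for all windows. For 0 of them did the treatments not overlap, against 7.49% of all windows. Without a count filter edgeR called 414 of 140449 windows, 0 of them in these genes. DESeq2 called 0 of 10358, with 345 at an unadjusted p under 0.05.

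Reads in introns, by the stretches that the deposited lists annotate, made up 75.6%, 76.4% and 66.8% of the members' reads in saline replicates 1 to 3 and 78.8%, 67.8% and 76.4% after methamphetamine. Each list entry gives the start and end of the intron, exon or UTR around its peak, and windows with their midpoint in such a stretch, listed or not, held 68.8% of the members' reads. Means were 73.0% ± 5.33 and 74.3% ± 5.77 (SD, n = 3 each; exact permutation p = 0.6, two-sided, 1 after adjustment). With regions from GENCODE the difference of 1.37 percentage points became -0.838, and with listed windows alone -11.1.

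The authors' peak lists, 1 per treatment, held 59 windows of these genes that also had counts: 44 in the saline list and 31 in the methamphetamine list, with 16 in both. The shared windows were 36.4% of the members' saline list and 51.6% of their methamphetamine list, where for all genes the shares were 50.5% and 49.9%. Gria1 had 10 windows in the saline list and 1 in the methamphetamine list, with no window in both. Gria4 had 3 and 0, Grin1 5 and 8, Grin2a 8 and 5, and Grin2b 12 and 9, while Grin2d and Grin3a had none in either list. Of 374 member windows with at least 10 reads, listed or not, 17 (4.55%) had 0 reads in all saline libraries, against 3.13% of 60925 windows of the table. None of the 374 had 0 reads in all methamphetamine libraries, against 393 of the 60925, a small part of them.

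By signal value in the authors' deposited tables, the highest window of Gria1 in the saline list was chr11:57011688-57011787, in an intron 73 nt from an exon (signal value 2.60, q = 2.80e-14). It was absent from the methamphetamine list, yet had 21.8, 16.5 and 42.8 CPM after saline and 33.0, 32.7 and 55.4 after methamphetamine, a change of 0.79 ± 0.49 (SE; edgeR, adjusted p 0.9998). The highest Gria4 window of the saline list, chr9:4421697-4421796, had a signal value of 2.62 and 21, 11 and 14 reads, against 0, 13 and 1 after methamphetamine. In the methamphetamine list the highest member window was the 5′ UTR window of Gria3 with the most reads (signal value 2.44, q = 5.87e-09). For Grin1 it was the window upstream of N1 (signal value 1.54, q = 2.71e-06), with 7, 4 and 8 reads after saline, against 15, 9 and 2 after methamphetamine.

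The other highest listed windows per gene, again by the authors' deposited tables, were spread over introns and UTRs. In the saline list they were an intron window of Grin1 (chr2:25292882-25292981, signal value 1.47), of Grin2a (chr16:9807699-9807798, 1.74), of Grin2c (chr11:115265170-115265269, 0.87) and of Gria2 (chr3:80789251-80789350, 1.75), and the 5′ UTR window chrX:41401455-41401554 of Gria3 (2.01). In the methamphetamine list they were a 3′ UTR window of Grin2a (chr16:9571599-9571698, 1.71), intron windows of Grin2b (chr6:135764034-135764133, 1.69), Grin2c (the same window as in the saline list, 1.47) and Gria1 (chr11:57029788-57029887, 1.56), and the 5′ UTR window of Gria2 (1.69). In all of these windows the reads of the treatments overlapped. The Gria1 window, listed only after methamphetamine, held 25, 7 and 19 reads after saline, against 13, 14 and 6 after methamphetamine.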

How the data were processed

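RNA-seq values are log2 CPM as the authors deposited them, voom output by the name per the labels. CLIP counts are the deposited whole-number reads per window; 172271 lines gave 147438 distinct windows. The deposited lists give a signal score and q-values (p-values adjusted by an unstated method) per peak, 1 list per treatment per the file headers. Per the submitters' processing notes the tools included Trimmomatic, UMI-tools, STAR, bedtools, Subread, featureCounts, limma and edgeR on mm10; versions and roles are not given in the sources used here.

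RNA-seq was tested with limma 3.58.1 (eBayes with trend), CLIP counts with the quasi-likelihood test of edgeR 4.0.16 after filterByExpr and TMM, per window and summed per gene, and CLIP minus RNA-seq with limma (prior count 2), each over the whole table with Benjamini-Hochberg adjustment. DESeq2 1.42.0 was an alternative. The fits were tested on simulated data. Single values used exact permutation tests (scipy 1.17.1). Regions and sequences came from GENCODE M21 (GRCm38) by window midpoint; coordinates are 1-based. Tests were two-sided. Of the lists' member positions, 1 Grin2b position had no count line, 1 Grin1 window carried the symbol Grin1os, and 1 position under Grin2b belonged to the antisense gene Gm26653.

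All 10 members were named, with each member's window of highest CPM, its listed window of highest signal value and the 3 windows of smallest p. Members, gene lists, library sets and tests were chosen with earlier results of these data known. Mutant samples were not analysed here.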

Additional observations from a re-analysis of the deposited data

How the results depend on the processing

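No member was called under any alternative run (0 to 0 called with any library left out, in all 4 comparisons), and of 465 alternative values 412 kept direction and side of the threshold while 53 changed sign. The numbers do not pair the pools: same-numbered libraries of the treatments correlated at -0.35, -0.82 and -0.49 (RNA-seq) and -0.25, -0.41 and -0.044 (CLIP), none of the 6 was a library's best match, and with a replicate block 0 members were called in each comparison and the differences Grin2a minus Grin2b and Gria1 minus Gria2 stayed at -0.003 and -0.042. No block was fitted to the intron share. Over fits that left out 1 library, that share difference ran from -1.70 to 4.62 percentage points (main 1.37, listed windows -11.1, GENCODE regions -0.838), Grin2a minus Grin2b from -0.10 to 0.045 and Gria1 minus Gria2 from -0.19 to 0.051 (0.084 with the library set as a covariate). RNA-seq changes ran from -0.078 to 0.054 (Grin1), -0.025 to 0.21 (Grin2a), -0.071 to 0.18 (Grin2b), -0.19 to 0.11 (Grin2c), -0.048 to 0.72 (Grin3a), -0.27 to 0.10 (Gria1), -0.32 to 0.29 (Gria2) and -0.29 to 0.62 (Gria3). With the library set as a covariate they were 0.015 (Grin1), -0.058 (Grin2a), -0.012 (Grin2b), 0.12 (Grin2c), -0.10 (Grin3a), -0.30 (Gria3) and -0.029 (Gria4). Gria3 was -0.037 in edgeR and -0.055 in DESeq2 on recovered reads. CLIP changes per gene ran from -0.11 to 0.48 (Grin2a), -0.11 to 0.80 (Grin2b), -0.52 to 0.18 (Grin3a) and -0.36 to 0.77 (Gria1), and on listed windows alone were -0.45 (Grin2a) and -0.17 (Gria1). CLIP minus RNA-seq ran from -0.32 to 0.52 (Grin2a), -0.26 to 0.72 (Grin2b), -0.28 to 0.77 (Gria1) and -0.32 to 0.82 (Gria3). The Grin1 last intron ran from -3.40 to 35.2 CPM. The cause of these sign changes was not tested.

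CLIP depth limits what a window can show: 30 of 928 member windows passed the count filter. edgeR without a count filter called 414 windows of the whole table against 0 with it, and its median change was 0.21 against 0.047.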
